A study of Rattus norvegicus with 12 samples.

Results

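Integrins are adhesion receptors made of 1 alpha and 1 beta chain, and the transcripts of 10 of their subunits were followed in the rat urinary bladder after spinal cord injury. The subunits were chosen by gene symbol, as the rows of the deposited gene table named Itga1, Itga3, Itga5, Itga6, Itga7, Itga8, Itga11, Itgb1, Itgb4 and Itgb6. They are 10 of the 40154 genes in that table, and all 10 had enough reads to be tested, as had 17687 genes in all. The study sequenced RNA from whole bladder tissue of female Wistar rats aged 10 to 12 weeks, an outbred laboratory strain. Injured rats had the spinal cord cut through completely, at thoracic segment 10 per the sample labels, and their bladders were taken 7, 14 or 28 days later. The controls were labelled as normal rats, and no sham operation is mentioned, so injury, surgery and anaesthesia cannot be told apart. Each of the 4 groups held 3 libraries, and nothing in the labels says how much of the bladder wall entered each one. The labels tie no library to a particular animal, so the p-values measure only the spread between these libraries, which may be technical.

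Integrin heterodimers bind proteins of the extracellular matrix outside the cell and link them, through talin, kindlin and the kinase complex around Ilk, to actin inside it. The beta1 chain pairs with many alpha chains, and the alpha chain largely sets the ligand: alpha5 and alpha8 read the RGD sequence of fibronectin, nephronectin and related proteins, alpha1 and alpha11 bind collagens, and alpha3, alpha6 and alpha7 bind laminins. In epithelium alpha6 also pairs with beta4, which anchors keratin filaments at hemidesmosomes, and alphav pairs with beta6, which releases active TGF-beta from its latent complex. The bladder wall holds a stratified urothelium, a lamina propria and layers of smooth muscle, each with its own set of these receptors.

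Libraries held 26275314 to 30747936 reads assigned to genes. On the first principal component of all tested genes, which carried 35.2% of the variance, controls lay at -67.84 to -65.39, day-14 bladders at -36.78 to -0.49, and day-28 and day-7 bladders at 9.87 and above. Summed over 16 urothelium markers, levels were 6594 to 8201 CPM, which are TMM-scaled counts relative to library size, in day-7 bladders, against 9884 to 10529 CPM in controls. Summed over 14 smooth muscle markers they were 14542 to 31068 CPM in day-28 bladders, against 35195 to 37525 CPM in controls. Defining genes of both tissues were detected in all 12 libraries, and no marker on either list was at 0 in any of them.

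Among the receptors for RGD ligands, Itga8 and Itga5 rose steeply 7 days after injury together with Itgb1, their common partner. The epithelial subunits Itgb6 and Itga6 fell at the same time, and Itgb4 and Itga3 did not pass the test. At day 14 Itga8 alone passed the test against control. At day 28 Itga8 was still higher, while Itga7 and Itga11, receptors for laminin and collagen, were lower.

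Counted by edgeR's quasi-likelihood test with Benjamini-Hochberg adjustment over all genes, at an adjusted p under 0.05, 4 of the 10 subunits rose and 2 fell at day 7, a comparison in which 26.1% of all tested genes were called. Those rising were 4 of 10 against 15.6% of all genes, and those falling were 2 of 10 against 10.5%. At day 14, 1 of 10 rose and 0 fell against a background of 2.45% (1.45% higher and 0.995% lower). At an unadjusted p under 0.05 in the edgeR test, 3 were higher and 1 lower, a threshold at which all genes were not counted. DESeq2 called 3 at day 14, and 1360 of all genes tested. At day 28, 1 rose and 2 fell against a background of 18.5% (11% higher and 7.51% lower). The median log2 fold change of the 10 was -0.27 at day 7, 0.17 at day 14 and 0.05 at day 28, beside -0.01, 0.00 and 0.00 over all tested genes. Without TMM scaling, which lowers the all-gene median at day 7 by 0.129, 3 rose and 4 fell at that day. The 3 comparisons share the same control libraries and are not independent of one another. All 3 libraries lay above the controls for 4 subunits and below them for 4 at day 7, where 23.6% and 21.7% of all genes did so. At day 14 they lay above for 4 and below for 1, against 11.5% and 13.2% of all genes, and at day 28 above for 1 and below for 3, against 20.9% and 19.6%. The day-14 count was 0 without any single control or without day-14 replicate 2 or 3, 2 without day-28 replicate 1 and 3 without day-28 replicate 3.

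**Figure D1:**
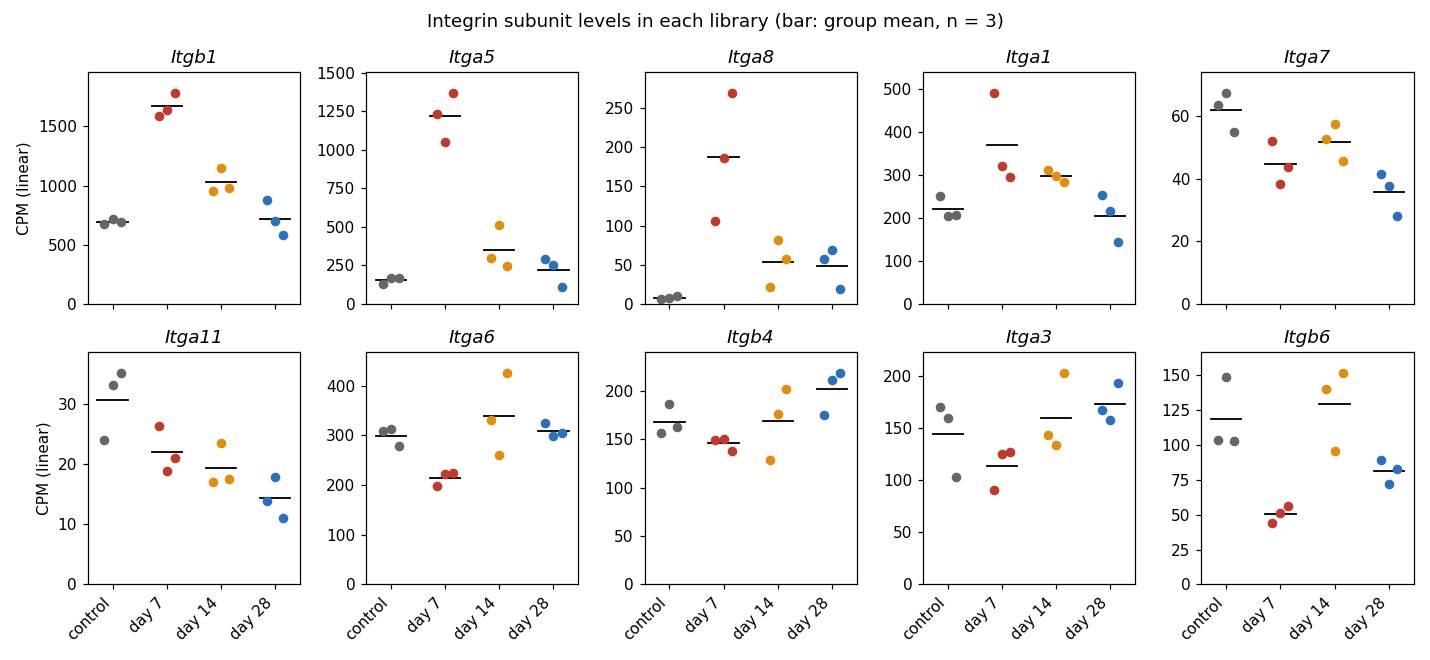
TMM-scaled CPM of each of the 10 subunits in the 12 libraries, by group on the horizontal axis, with 1 point per library, a bar at the group mean and a linear vertical axis from 0 in each panel. Itga5, Itga8 and Itgb1 are high in all 3 day-7 libraries, and Itgb6 is low in them.

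Itga8 encodes the alpha8 chain, a mesenchymal receptor best known for binding nephronectin, and is annotated at chr17:79321893-79676927 on the minus strand (rn6). It stood at 6.89, 7.22 and 9.68 CPM in control replicates 1, 2 and 3, at 106.5, 185.7 and 269.2 CPM at day 7, at 22.0, 82.2 and 57.9 CPM at day 14, and at 57.8, 69.0 and 19.4 CPM at day 28. All 9 libraries from injured rats lay above all 3 controls, with day 7 highest. At day 7 this was a log2 fold change of 4.56 ± 0.59 (SE), a 23.6-fold rise (adjusted p = 0.000413, n = 3 libraries a group, edgeR). It was 2.77 ± 0.55 at day 14 (adjusted p = 0.0308, edgeR) and 2.62 ± 0.55 at day 28 (adjusted p = 0.00738, edgeR). Of 17687 genes ranked by log2 fold change from the top, it came at rank 108 at day 7, at rank 214 at day 14 and at rank 508 at day 28. The call at day 14 was lost without any 1 control (adjusted p 0.0995 to 0.129, edgeR) and without either day-14 replicate 2 (0.0588) or replicate 3 (0.0848). In whole tissue, more cells of a type and more RNA per cell cannot be told apart, for this gene or those that follow.

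Itga5, at chr7:144970444-144993652 on the minus strand (rn6), encodes the alpha5 chain of the main fibronectin receptor. Control libraries had 131.2, 165.9 and 169.6 CPM, followed by 1229, 1050.3 and 1368 CPM at day 7, 297.4, 510.7 and 246.4 CPM at day 14 and 288.9, 253.8 and 113.1 CPM at day 28. Day-7 and day-14 libraries all exceeded the controls, and at day 28 replicate 3 fell below every control while the other pair lay above them. Expressed as a log2 fold change the day-7 rise was 2.97 ± 0.35, or 7.82-fold (adjusted p = 0.00025, edgeR). It was 1.18 ± 0.33 at day 14 (adjusted p = 0.0863, edgeR) and 0.49 ± 0.33 at day 28 (adjusted p = 0.336, edgeR). The day-14 difference was called by DESeq2 (adjusted p = 0.0073), by edgeR without an expression filter (0.0481) and without day-28 replicate 3 (0.0299).

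Itgb1, at chr19:61677512-61725537 on the plus strand (rn6), encodes the beta1 chain shared by most of the alpha subunits described here. It measured 673.1, 719.3 and 689.8 CPM in controls, 1585, 1640.0 and 1782 CPM at day 7, 956.8, 1151 and 983.1 CPM at day 14 and 882.2, 703.5 and 579.3 CPM at day 28. The day-7 and day-14 libraries lay above all controls, and the day-28 libraries overlapped them. Its day-7 log2 fold change was 1.27 ± 0.15, a 2.40-fold rise (adjusted p = 0.000229, edgeR). It was 0.57 ± 0.14 at day 14 (adjusted p = 0.0642, edgeR) and 0.06 ± 0.14 at day 28 (adjusted p = 0.828, edgeR). At day 14 it was called by DESeq2 (adjusted p = 0.00438), by edgeR without TMM (0.0497), from the 2 groups alone (0.0362) and without day-28 replicate 1 (0.032) or 3 (0.0309).

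Upstream sequence was available from RefSeq (rat build GRCr8) for 7 of the 10 subunits, and the 250 bases before the start of the 3 that rose most at day 7 and of Itgb6, which fell most, are shown because these 4 carry the largest changes of that day. Each reads 5′ to 3′ on the strand of its gene, and capitals mark the GC box GGGCGG on either strand in Itga8, Itga5 and Itgb1 and the CArG box in Itgb6. The windows are chr17:80410634-80410883 (minus strand) for Itga8, chr7:136381306-136381555 (minus strand) for Itga5, chr19:73602027-73602276 (plus strand) for Itgb1 and chr3:65530334-65530583 (minus strand) for Itgb6.
Itga8: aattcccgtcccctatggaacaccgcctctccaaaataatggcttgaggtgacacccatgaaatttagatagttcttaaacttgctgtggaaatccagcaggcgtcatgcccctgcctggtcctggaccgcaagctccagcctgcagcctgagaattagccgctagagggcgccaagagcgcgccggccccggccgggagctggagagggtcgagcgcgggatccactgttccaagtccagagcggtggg
Itga5: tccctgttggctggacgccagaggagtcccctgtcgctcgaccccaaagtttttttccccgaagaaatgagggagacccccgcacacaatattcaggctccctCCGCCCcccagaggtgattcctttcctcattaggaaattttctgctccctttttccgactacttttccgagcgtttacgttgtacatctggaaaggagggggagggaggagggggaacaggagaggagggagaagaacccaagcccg
Itgb1: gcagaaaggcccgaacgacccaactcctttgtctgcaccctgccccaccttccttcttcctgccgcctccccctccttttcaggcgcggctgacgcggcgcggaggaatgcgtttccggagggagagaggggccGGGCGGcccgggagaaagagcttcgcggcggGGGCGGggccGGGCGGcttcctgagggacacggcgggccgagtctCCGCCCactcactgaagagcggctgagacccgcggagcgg
Itgb6: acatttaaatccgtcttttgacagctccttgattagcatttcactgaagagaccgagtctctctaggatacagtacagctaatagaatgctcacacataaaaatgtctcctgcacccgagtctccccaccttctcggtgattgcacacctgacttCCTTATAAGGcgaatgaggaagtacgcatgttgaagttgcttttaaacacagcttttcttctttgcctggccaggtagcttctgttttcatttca
The GC box, the letters bound by Sp1 and its relatives, was in 4 of the 7 windows (Itga3, Itga5, Itga11 and Itgb1) and in 30.5% of the 33469 rat promoters of the same length. It was found 4 times in Itgb1 and 1 time in Itga5, and these letters were not in the Itga8 window. The AP-1 letters TGANTCA were in 0 of the 7 windows and 6.34% of all promoters, and the TATA letters TATAAA in 0 of 7 and 12.9%. The TEAD letters CATTCC were in the windows of Itga3 and Itgb1 and in 12.1% of all, and CCAAT in that of Itga3 and 34% of all. The CArG box, the letters bound by serum response factor, was in the Itgb6 window and in 1.5% of all promoters. All motifs were read on both strands, overlaps between different motifs were not removed, and a match describes letters only.

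Of the collagen receptors, Itga1 rose at day 7 and Itga11 was lower at day 28. Itga1, at chr2:47127403-47281387 on the minus strand (rn6), encodes the alpha1 chain, which prefers basement membrane collagen and is typical of smooth muscle. It measured 251.0, 205.4 and 206.7 CPM in controls, 490.8, 320.4 and 296.0 CPM at day 7, 311.0, 297.6 and 282.9 CPM at day 14 and 254.4, 216.7 and 144.6 CPM at day 28. Day-7 and day-14 libraries lay above all controls, with day-7 replicate 1 far above its group, and day 28 overlapped the controls. That library also had the highest smooth muscle marker sum, 51777 CPM, against 31418 and 35681 CPM in the other day-7 libraries. The 14 markers did not move together at day 7, when 4 rose and 4 fell (median log2 fold change -0.42). Of all genes 15.6% rose and 10.5% fell, and over the alternatives 2 to 4 of the markers rose and 1 to 6 fell. The part of muscle content in the Itga1 result was not tested. Against control, Itga1 had a log2 fold change of 0.74 ± 0.22 at day 7 (adjusted p = 0.0272, edgeR), 0.43 ± 0.22 at day 14 (adjusted p = 0.339) and -0.11 ± 0.22 at day 28 (adjusted p = 0.781). Without day-7 replicate 1 the day-7 value was 0.47 (adjusted p = 0.0925, edgeR), and the call was also lost without control replicate 2 (0.0918) or 3 (0.0911) and without TMM (0.0517). Another gene on the same strand, Pelo, overlaps Itga1 and held 5349 reads, against 93241 for Itga1.

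Itga11, at chr8:67566874-67683973 on the plus strand (rn6), encodes the alpha11 chain, a receptor for fibrillar collagen on fibroblasts. It measured 23.9, 33.1 and 35.1 CPM in controls, 26.3, 18.8 and 21.0 CPM at day 7, 17.1, 23.5 and 17.6 CPM at day 14 and 13.9, 17.9 and 11.1 CPM at day 28. Every day-14 and day-28 library lay below every control. Its log2 fold change was -0.48 ± 0.21 at day 7 (adjusted p = 0.117, edgeR), -0.66 ± 0.21 at day 14 (adjusted p = 0.126) and -1.10 ± 0.21 at day 28 (adjusted p = 0.00499), a 2.15-fold fall. Summed over 10 fibroblast markers, levels were 2144 to 3097 CPM in day-28 bladders, against 3466 to 4526 CPM in controls. The abundant Dcn (decorin), at 1128 to 1920 CPM in day-28 bladders and 1984 to 2632 CPM in controls, made up much of that sum, and at day 28 only Lum (lumican) of the 10 fell (-0.97 ± 0.19, adjusted p = 0.00506, edgeR). Fap (1.18 ± 0.34, adjusted p = 0.0311, edgeR), Thy1 (0.72 ± 0.20, adjusted p = 0.027) and Pi16 (1.28 ± 0.41) rose, of which 0 or 1 passed the test without any 1 control, without day-28 replicate 1 or 2 or from the 2 groups alone. The part of these cells in the fall of Itga11 was not tested.

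Itga7, at chr7:3355079-3383886 on the plus strand (rn6), encodes the alpha7 chain, the laminin receptor of muscle. It measured 63.7, 67.5 and 55.1 CPM in controls, 52.2, 38.3 and 43.9 CPM at day 7, 52.7, 57.5 and 45.6 CPM at day 14 and 41.7, 37.9 and 28.1 CPM at day 28. Day-7 and day-28 libraries all lay below the controls, and day 14 overlapped them. The log2 fold change was -0.47 ± 0.16 at day 7 (adjusted p = 0.0513, edgeR), -0.26 ± 0.16 at day 14 (adjusted p = 0.447) and -0.79 ± 0.16 at day 28 (adjusted p = 0.00657), a 1.73-fold fall. At day 7 the difference was past the threshold in 8 of the 19 alternative analyses, including DESeq2 (adjusted p = 0.0303) and edgeR without TMM (0.0164). At day 28 smooth muscle markers and Itga7 were both lowest in replicate 3, at 14542 and 28.1 CPM, and their relation was not tested. Of the 14 markers 0 rose and 4 fell at that day, against 11% and 7.51% of all genes, and 1 to 11 fell over the alternatives. Mettl7b overlaps Itga7 on the opposite strand and held 1183 reads, against 16635 for Itga7.

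Among the epithelial subunits, Itgb6 fell most. It lies at chr3:46652624-46775362 on the minus strand (rn6) and encodes the beta6 chain, found almost exclusively in epithelium. It measured 103.7, 148.5 and 102.8 CPM in controls, 44.1, 51.1 and 55.9 CPM at day 7, 139.9, 95.7 and 151.3 CPM at day 14 and 89.5, 72.2 and 82.7 CPM at day 28. Day-7 and day-28 libraries were all below the controls, and day 14 overlapped them. The log2 fold change was -1.23 ± 0.19 at day 7 (adjusted p = 0.00097, edgeR), a 2.35-fold fall. It was 0.12 ± 0.19 at day 14 (adjusted p = 0.796, edgeR) and -0.54 ± 0.19 at day 28 (adjusted p = 0.0694), which DESeq2 called (0.041), as did edgeR without day-14 replicate 2 (0.0364).

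Itga6, at chr3:58442904-58515124 on the plus strand (rn6), encodes the alpha6 chain, a laminin receptor of basal epithelial cells and of endothelium. It measured 307.7, 313.1 and 277.6 CPM in controls, 197.0, 221.7 and 225.1 CPM at day 7, 331.7, 261.3 and 424.8 CPM at day 14 and 325.2, 298.6 and 303.9 CPM at day 28. The day-7 libraries were all below the controls and the later ones overlapped them. The log2 fold change was -0.48 ± 0.15 at day 7 (adjusted p = 0.0332, edgeR), 0.18 ± 0.15 at day 14 (adjusted p = 0.585) and 0.05 ± 0.15 at day 28 (adjusted p = 0.863). The day-7 call was lost without any 1 control (adjusted p 0.0511 to 0.0986, edgeR) or any 1 day-7 library (0.0549 to 0.0789).

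Its partner Itgb4, at chr10:104524000-104560180 on the plus strand (rn6), encodes the beta4 chain of hemidesmosomes. It measured 156.4, 185.8 and 162.0 CPM in controls, 148.8, 150.3 and 137.5 CPM at day 7, 128.4, 175.6 and 201.8 CPM at day 14 and 174.7, 211.3 and 217.9 CPM at day 28. All 3 day-7 libraries lay just below the controls, but the log2 fold change of -0.21 ± 0.15 did not pass the test (adjusted p = 0.341, edgeR), nor did 0.00 ± 0.15 at day 14 (adjusted p = 0.993) or 0.26 ± 0.15 at day 28 (adjusted p = 0.266). Itga3, at chr10:82855841-82887755 on the minus strand (rn6), encodes the alpha3 chain, the other epithelial receptor for laminin. It measured 169.8, 159.2 and 103.3 CPM in controls, 90.3, 124.7 and 127.2 CPM at day 7, 143.6, 133.8 and 202.5 CPM at day 14 and 167.7, 158.1 and 192.9 CPM at day 28. Every group overlapped the controls, where replicate 3 was low. Its log2 fold change was -0.34 ± 0.21 at day 7 (adjusted p = 0.264, edgeR), 0.15 ± 0.21 at day 14 (adjusted p = 0.776) and 0.26 ± 0.21 at day 28 (adjusted p = 0.43).

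Urothelium markers were lower at day 7 as well. Of the 16, 6 fell and 0 rose at that day, against 10.5% and 15.6% of all genes. Over the alternatives 4 to 10 fell, with 10 both without TMM scaling and from the 2 groups alone. The median log2 fold change of the 16 was -0.50 at day 7 and 0.02 at day 14. The fall of Itgb6, -1.23, was larger than the day-7 median, and that of Itga6, -0.48, was close to it. The values of Itga3 (-0.34) and Itgb4 (-0.21), which did not pass the test, were smaller in size than that median. What part fewer urothelial reads had in these falls was not tested.

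**Figure D2:**
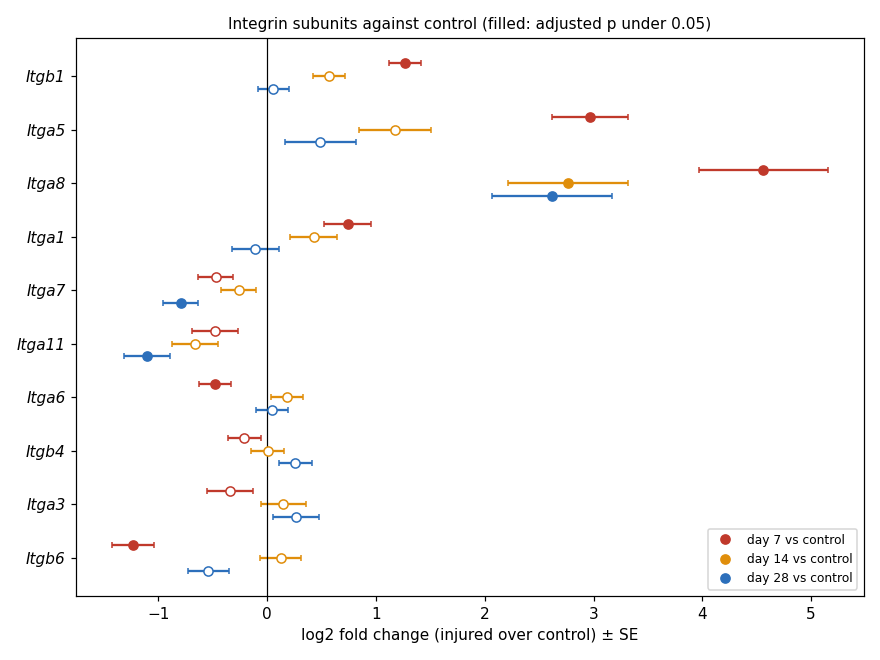
Log2 fold change of each subunit against control at days 7, 14 and 28, with bars of 1 SE and filled points where the adjusted p was under 0.05. Itga8 lies above 2.5 at every time, Itga5 at 2.97 at day 7 only, and Itgb6 at -1.23 at day 7.

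The changes between injury times set day 7 apart. From all 12 libraries in 1 fit, 2 subunits were higher and 3 lower at day 14 than at day 7, where 19.5% of all genes were called (7.59% higher and 12.0% lower). At day 14 relative to day 7, Itgb6 was higher by 1.36 ± 0.19 on the log2 scale (adjusted p = 0.000919, edgeR) and Itga6 by 0.66 ± 0.15 (adjusted p = 0.0105). Itga5 was lower (-1.79 ± 0.33, adjusted p = 0.0044, edgeR), as were Itga8 (-1.79 ± 0.52, adjusted p = 0.0327) and Itgb1 (-0.70 ± 0.14, adjusted p = 0.00737). The Itga8 call was lost when day-7 replicate 2 or 3, or day-14 replicate 1 or 3, was left out (adjusted p of 0.0707 to 0.112, edgeR) and from the 2 groups alone (0.0623), which also ended that of Itga6 (0.0512). The median log2 fold change of the 10 was 0.01, as over all genes.

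At day 28 relative to day 7, 2 subunits were higher and 4 lower, against 18.7% of all genes called (7.89% higher and 10.8% lower), and without TMM scaling, which raises the all-gene median by 0.159, 4 were higher and 4 lower. DESeq2 called 4 higher and 5 lower, and 4230 of all genes tested, 1886 of them higher. Itga5 was lower (-2.48 ± 0.34, adjusted p = 0.00106, edgeR) and so was Itgb1 (-1.21 ± 0.15, adjusted p = 0.000551). Itga8 (-1.94 ± 0.52, adjusted p = 0.0244, edgeR) and Itga1 (-0.85 ± 0.22, adjusted p = 0.0198) were lower too, while Itgb6 (0.69 ± 0.19, adjusted p = 0.0259) and Itga6 (0.53 ± 0.15, adjusted p = 0.029) were higher. Those last 4 calls depended on single libraries. The Itga8 call was lost without day-7 replicate 2 (adjusted p = 0.0598, edgeR) or 3 (0.0865) or day-28 replicate 3 (0.0651), and that of Itga1 without day-7 replicate 1 (0.0565) or day-28 replicate 3 (0.0607) and from the 2 groups alone (0.0795). That of Itgb6 was lost without day-7 replicate 1 or 2 or day-28 replicate 1 or 3 (0.0659 to 0.0771, edgeR), and that of Itga6 without any 1 day-7 or day-28 library (0.0549 to 0.0783). Without day-7 replicate 1 or 2 the count was 3, and without day-28 replicate 3 it was 2. At day 28 relative to day 14, edgeR called 0 of 10, against 4.34% of all genes (3.13% higher and 1.22% lower). There 4 subunits (Itga1, Itga7, Itgb1 and Itgb6) were lower at an unadjusted p under 0.05, where all genes were not counted. DESeq2 called 3 of those (Itga7, Itgb1 and Itgb6), and 1647 of all genes tested, 1089 of them higher. The edgeR count was 1 without day-14 replicate 2 or day-28 replicate 1. The median of the 10 was -0.48 in that comparison and -0.47 at day 28 relative to day 7, beside 0.00 and 0.01 over all genes.

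Levels of different subunits can be compared in the authors' deposited TPM, which divide reads by the gene length the authors gave. In controls Itgb1 was highest at 375.8 ± 11.4 TPM (SD, n = 3 here and below), followed by Itga1 at 114 ± 15.1, Itga6 at 99.3 ± 7.48 and Itga5 at 72.2 ± 8.89. Itga5, Itga3 (59.9 ± 15.6), Itgb4 (58.4 ± 5.27) and Itgb6 (45.1 ± 9.94) overlapped their neighbours in this order. Itga7 (28.0 ± 3.11), Itga11 (11.2 ± 2.02) and Itga8 (2.54 ± 0.453) followed without overlap. At day 7 Itgb1 (825 ± 16.2 TPM), Itga5 (515 ± 45.5 TPM) and Itga1 (176 ± 59.8 TPM) led, and Itga8 (53.9 ± 19.98 TPM) overlapped Itga6 (65.0 ± 4.08 TPM) and Itgb4 (46.4 ± 5.46 TPM). At day 14 Itga5 (167 ± 64.1 TPM) overlapped Itga1 (158 ± 10.3 TPM), and Itga8 (17.7 ± 9.65 TPM) overlapped Itga7 and Itga11. At day 28 Itga1 (108 ± 29.8 TPM), Itga6 (104 ± 4.60 TPM) and Itga5 (104 ± 44.5 TPM) overlapped, and Itga11 was lowest at 5.33 ± 1.32 TPM.

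The sum of the 7 alpha transcripts and the level of Itgb1 moved side by side. This sum left out the other alpha subunits, such as Itga4 and Itgav, and counted all Itga6, which also pairs with beta4. Its ratio to Itgb1 therefore does not measure the balance of alpha and beta1 chains. The sum was 387 ± 27.9 TPM in controls, then 878 ± 69.2 TPM (day 7), 557 ± 36.3 TPM (day 14) and 427 ± 83.0 TPM (day 28). Divided by Itgb1 it gave a ratio of 1.03 ± 0.0695 in controls, then of 1.07 ± 0.0938 (day 7), 0.975 ± 0.0223 (day 14) and 1.08 ± 0.0719 (day 28), with no test made. Day-7, day-14 and day-28 ratios all overlapped those of controls, and day 14 lay below day 28. The mix of alpha chains differed more. Itga5 made up 18.8% ± 3.38 of the 7 in controls, then 58.6% ± 2.76 (day 7), 29.6% ± 9.40 (day 14) and 23.4% ± 6.56 (day 28). Itga8 made up 0.664% ± 0.171, 6.25% ± 2.54, 3.11% ± 1.56 and 3.58% ± 1.59 in the same order of groups. Itga6 took 25.6% ± 0.404 in controls, then 7.44% ± 0.993 (day 7), 21.0% ± 6.01 (day 14) and 25.0% ± 4.68 (day 28). Shares of a sum are tied to one another, so the rise of Itga5 lowers those of the rest.

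**Figure D3:**
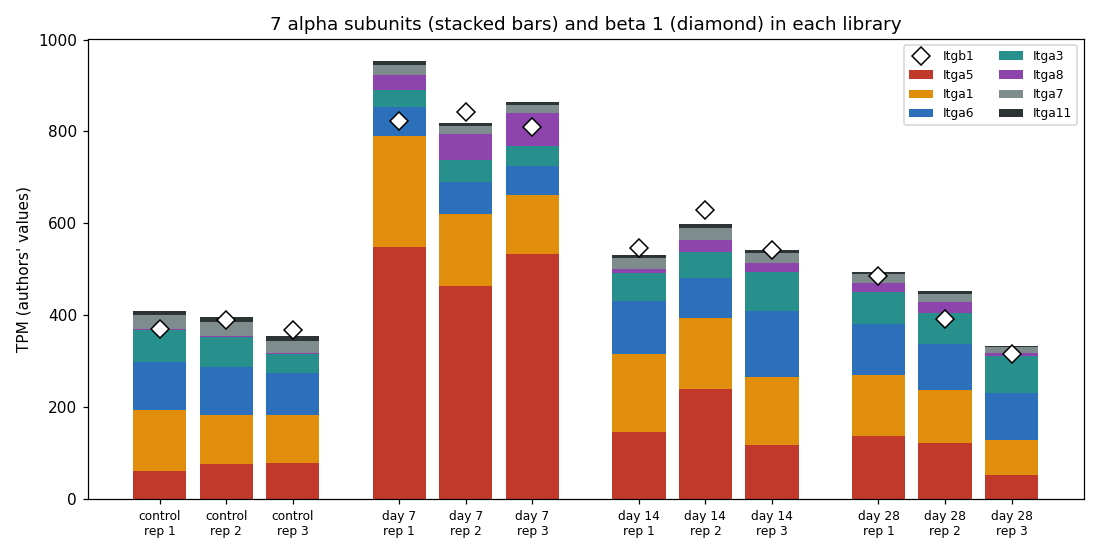
TPM of the 7 alpha transcripts and TPM of Itgb1 in each library. Day-7 libraries have the highest Itgb1, at 809.6 TPM and above, and the highest alpha sums, with Itga5 as the largest part of each.

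Within the pairs used by epithelium, the ratio of Itga6 to Itgb4 was 1.41 ± 0.149 in TPM at day 7, against 1.71 ± 0.149 in controls, with no overlap of the libraries. It was 1.96 ± 0.524 at day 14 and 1.48 ± 0.252 at day 28. Itgav encodes the alphav chain, the obligate partner of beta6. Its ratio to Itgb6 was 4.66 ± 0.596 at day 7, against 1.16 ± 0.109 in controls. Itgav itself rose at day 7 (log2 fold change 0.78 ± 0.13, adjusted p = 0.00129, edgeR) while Itgb6 fell. The ratio was 1.56 ± 0.319 at day 14 and 2.15 ± 0.357 at day 28.

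The 10 subunits fell into different time courses. Likeness was measured as the root mean square difference of log2 CPM, each gene centred on its own mean over the 12 libraries, and low values mean alike courses. Closest among themselves were Itga3 and Itga6 (0.194), Itga3 and Itgb4 (0.267), Itga7 and Itga11 (0.268), Itga6 and Itgb4 (0.271), and Itga1 and Itgb1 (0.307). Of 11087 genes with a symbol and a mean of at least 5 CPM, Cthrc1 (0.482), Tubb3 (0.542) and Bdnf (0.559) came nearest to Itga8, whose own log2 values had an SD of 1.79. Nearest to Itga5 (SD 1.26) were Nrip3 (0.286), Fn1 (0.347) and Col4a1 (0.348). Nearest to Itgb1 (SD 0.556) were Tes (0.141), Ak4 (0.178) and Enah (0.181), and nearest to Itga1 (SD 0.437) were Ilk (0.186), Mical3 (0.194) and Gpc4 (0.194). Nipal1 (0.209), Dusp16 (0.229) and Slc14a1 (0.230) came nearest to Itgb6 (SD 0.593). For the rest the nearest were Tgfa (0.104) for Itga6, Ptpn14 (0.102) for Itga7, Avpr1a (0.161) for Itga11, Map3k9 (0.157) for Itga3 and Gnptg (0.121) for Itgb4.

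The ligands of the subunits that rose were measured in the same libraries. Fn1 encodes fibronectin, which both alpha5beta1 and alpha8beta1 bind. It stood at 6981, 5920.2 and 7261 CPM in day-7 bladders, against 631.7, 803.7 and 718.1 CPM in controls. All day-7 libraries lay above all controls, and the log2 fold change was 3.23 ± 0.31 (adjusted p = 0.000103, edgeR). Npnt encodes nephronectin, another ligand of alpha8beta1. It stood at 10.7, 10.1 and 9.92 CPM in day-7 bladders, against 24.3, 14.3 and 18.7 CPM in controls. Its libraries lay below the controls without passing the test (log2 fold change -0.89 ± 0.38, adjusted p = 0.101, edgeR, and 0.0102 to 0.284 over the alternatives). Itga8 was 23.6-fold higher at day 7, when Fn1, its other ligand given here, also rose. At day 28 the value for Npnt was -1.01 ± 0.38 (adjusted p = 0.0862, edgeR; 0.0303 to 0.245 over the alternatives).

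At day 7, 15.6% of all tested genes rose and 10.5% fell. Of 18 genes for RGD and matricellular ligands, 15 rose and 0 fell at that day, with a median log2 fold change of 2.15. Among them Tgfb1, whose latent form is bound by alphavbeta6, rose by 1.67 ± 0.13 (adjusted p = 4.1e-05, edgeR). Emilin1, an elastic fibre protein, rose by 1.61 ± 0.13 (adjusted p = 4.9e-05, edgeR) and Ltbp1, which tethers latent TGF-beta, by 1.54 ± 0.15 (adjusted p = 0.000112). Tgfb1 was still higher at day 28 (1.39 ± 0.13, adjusted p = 0.000101, edgeR). At that day 5 of 18 rose and 0 fell, against 11% and 7.51% of all genes. DESeq2 called 7 higher and 1 lower, and 4142 of all genes tested. The edgeR count was 3 without any 1 control, and 3 without day-7 replicate 2, day-14 replicate 2 or 3 or day-28 replicate 1. At day 14, 3 of 18 rose, against 1.45% of all genes, and 0 without any 1 control. Of 13 collagen genes 8 rose and 1 fell at day 7 (median 1.45). Col4a1 and Col4a2, basement membrane chains bound by alpha1beta1, rose by 2.70 ± 0.25 (adjusted p = 8.54e-05, edgeR) and 2.52 ± 0.23 (adjusted p = 7.99e-05), and Col4a6 fell (-1.25 ± 0.19, adjusted p = 0.000829). Col1a1, the main fibrillar chain, was at 0.90 at day 7 (adjusted p = 0.0509, edgeR) and at -1.14 ± 0.31 at day 28 (adjusted p = 0.0258), a call lost without control replicate 1 (0.0893) or 3 (0.0644) or day-28 replicate 1 (0.053) or 3 (0.0585).

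Of 11 laminin chains 3 rose and 2 fell at day 7 (all genes: 15.6% and 10.5%), split by the laminin they belong to. Lama5 (1.15 ± 0.10, adjusted p = 7.95e-05, edgeR), Lamb1 (0.84 ± 0.13, adjusted p = 0.000987) and Lamc1 (1.08 ± 0.19, adjusted p = 0.00203), chains of the laminin of most basement membranes, rose. Lama3 (-0.61 ± 0.13, adjusted p = 0.00531, edgeR) and Lamb3 (-1.06 ± 0.18, adjusted p = 0.00154), chains of the laminin beneath epithelium, fell. Of the 7 hemidesmosome partners those same Lama3 and Lamb3 were the only ones to pass the test at day 7. Plec, the plectin that ties beta4 to keratin, was at 0.26 (adjusted p = 0.374, edgeR), and Col17a1 at -0.05.

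Of 30 adaptor and signalling genes 13 rose and 2 fell at day 7 (median log2 fold change 0.26), against 15.6% and 10.5% of all genes. Tns3, a tensin, rose by 0.89 ± 0.11 (adjusted p = 0.000371, edgeR), Actn1, an actin crosslinker, by 1.53 ± 0.24 (adjusted p = 0.00109) and Pxn, the scaffold paxillin, by 0.53 ± 0.08 (adjusted p = 0.00119). At day 28, 5 of 30 rose and 3 fell (median 0.00), near the 11% of all genes higher and 7.51% lower at that day. Parvg (2.30 ± 0.28, adjusted p = 0.000403, edgeR) and Fermt3 (1.24 ± 0.19, adjusted p = 0.00158), the parvin and kindlin of blood cells, rose, and Tln2 (-0.89 ± 0.13, adjusted p = 0.00109) and Tns2 (-0.78 ± 0.15, adjusted p = 0.00436) fell. Without day-28 replicate 1 the counts were 5 and 9, and without control replicate 2 or day-28 replicate 3 they were 3 and 2. At day 28 DESeq2 called 6 in each direction, and 4142 of all genes tested. At day 14, 1 of 30 rose, against 1.45% of all genes, and 0 without any 1 control.

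The other 16 integrin subunits in the table, many of them leukocyte chains, changed in 1 direction only where they passed the test. At day 7, 10 rose and 0 fell (median log2 fold change 1.02), against 15.6% and 10.5% of all genes. At day 14, 4 rose and 0 fell (0.73), against 1.45% and 0.995%. At day 28, 9 rose and 0 fell (2.16), against 11% and 7.51%. Without any 1 control the day-14 count was 1, and without day-14 replicate 3 it was 2. DESeq2 called 9 at day 14, and 1360 of all genes tested. Itga4, the alpha4 chain of leukocyte adhesion, had log2 fold changes of 2.78 ± 0.20 at day 7 (adjusted p = 2.93e-05, edgeR), 1.52 ± 0.19 at day 14 (adjusted p = 0.00748) and 2.40 ± 0.19 at day 28 (adjusted p = 6.62e-05). Itgb2, the beta chain common to leukocyte integrins, had 2.47 ± 0.31 (adjusted p = 0.000342, edgeR), 1.88 ± 0.30 (adjusted p = 0.0166, lost without any 1 control) and 2.63 ± 0.31 (adjusted p = 0.000305) at the same days. All 10 macrophage markers rose at days 7 and 28, and their sum was 1404 to 1777 CPM at day 7 and 1271 to 1741 CPM at day 28, against 458 to 541 CPM in controls, with its part in these rises not tested.

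Itgb8 encodes the beta8 chain, another partner of alphav that binds latent TGF-beta. It stood at 45.8, 36.2 and 38.7 CPM in controls, 31.6, 47.7 and 29.3 CPM at day 7, 56.3, 49.4 and 72.7 CPM at day 14 and 162.0, 161.5 and 262.6 CPM at day 28. Only day 28 passed the test (log2 fold change 2.28 ± 0.24, adjusted p = 0.000177, edgeR), and day 7 (-0.15 ± 0.23, adjusted p = 0.669) and day 14 (0.56 ± 0.23, adjusted p = 0.236) did not. Itgad and Itgae, alpha chains of leukocytes, also rose at day 28, Itgae by 2.21 ± 0.23 (adjusted p = 0.000146, edgeR). Gsg2 overlaps Itgae on the opposite strand and held 2011 reads, against 4244 for Itgae, so the Itgae value is uncertain. Itgad had 8.41, 13.2 and 13.3 CPM at day 28, against 0, 0.619 and 0.250 CPM in controls (log2 fold change 5.32 ± 0.77, adjusted p = 0.00103, edgeR), a size that rests on 24 control reads. Itga9 and Itgb7 overlap genes with more reads, so their values are uncertain and are not described, though both are in the counts above.

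**Figure D4:**
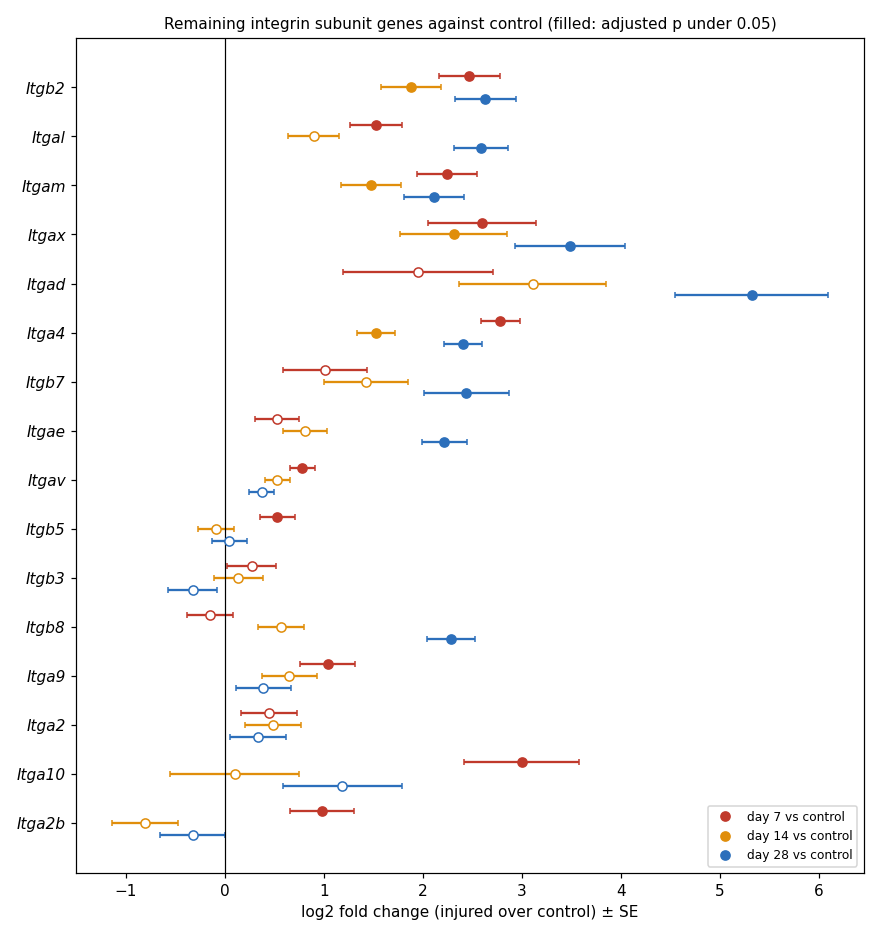
Log2 fold change against control of the other 16 integrin subunits at days 7, 14 and 28, with bars of 1 SE and filled points where the adjusted p was under 0.05. Itga4 and Itgb2 are filled at each day, and Itgb8 at day 28 only.

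Markers of other cell types also differed at day 7. Endothelial markers summed to 677 to 780 CPM at day 7, against 215 to 237 CPM in controls. Of the 8, 7 rose at that day, against 15.6% of all genes. The 7 skeletal muscle markers summed to 950.0 to 1665 CPM at day 7, against 120 to 129 CPM in controls. Most came from Acta1 (914 to 1612 CPM against 65.4 to 73.3 CPM). Of the 5 tested, 3 rose (Acta1, Myh1 and Myh2) and 1 fell, against 15.6% and 10.5% of all genes. Over the alternatives the log2 fold change was 4.98 to 6.17 for Myh1 and 4.34 to 5.88 for Myh2. Ckm, the muscle creatine kinase, fell (log2 fold change -1.82 ± 0.35, adjusted p = 0.00312, edgeR). Red cell markers reached 8485 CPM in day-7 replicate 3, against 411 and 864 CPM in the other day-7 libraries and 152 to 731 CPM in controls. The part of these cells in the changes of Itga5, Itga8 and Itgb1 was not tested. Without day-7 replicate 3 all 3 genes remained called at that day.

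**Figure D5:**
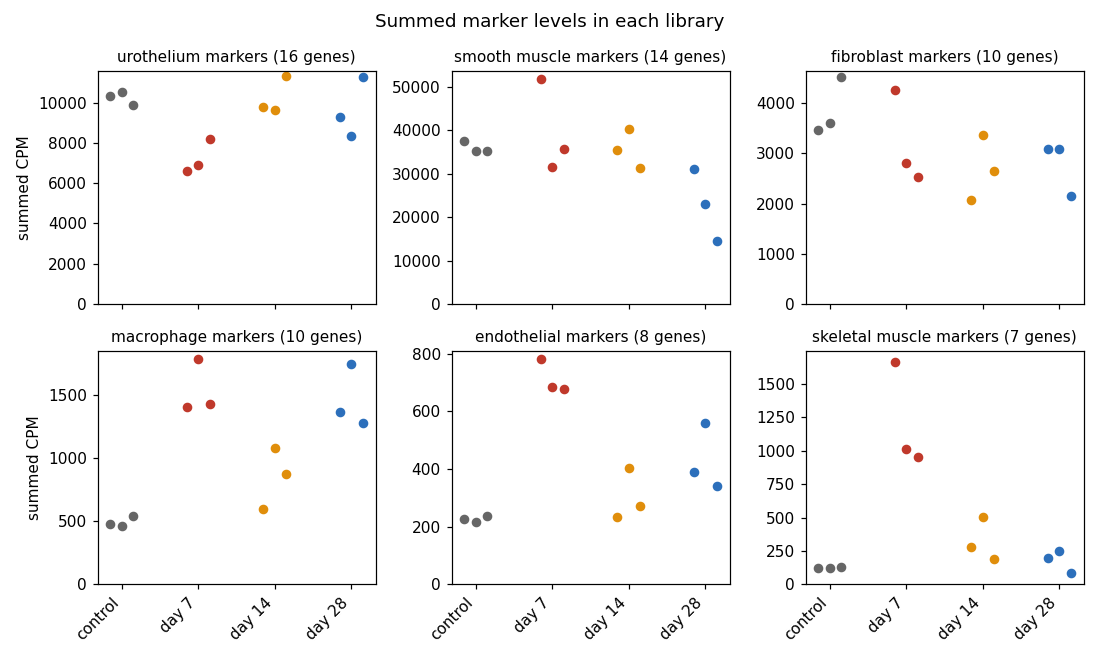
Summed TMM-scaled CPM of 6 marker lists in each library by group, with linear axes from 0. Urothelium sums are lowest at day 7, smooth muscle sums lowest at day 28, macrophage sums are highest at days 7 and 28, and endothelial sums at day 7.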

How the data were processed

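RNA of whole bladder of female rats was measured in 12 libraries by ribosome-depleted RNA sequencing (RiboMinus, TruSeq, single reads of 50 bases, per the labels' protocols). Per the submitters' processing notes, the tools included HISAT2 2.1.0, HTSeq 0.11.2 and bcl2fastq, on build rn6. Use of strand in counting is not given in the sources read here, so overlaps of integrin genes are given, and those not named held at most 891 reads over the 12 libraries. The authors deposited raw counts per gene, with no normalization, and TPM, per the file headers. The TPM equal counts per deposited length rescaled to 1 fixed total, within 2.62e-10. Transcript and non-coding tables were not used.

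Groups came from sample titles. The test was edgeR 4.0.16 (R 4.3.3) on genes that passed filterByExpr at a minimum count of 10 and a minimum total of 15, with TMM scaling and a single quasi-likelihood model over the 12 libraries, and p-values were adjusted over 17687 genes within a comparison and called under 0.05. Each SE is approximate: the size of the log2 fold change over the root of its F statistic. Centred log2 CPM used a prior count of 2. DESeq2 1.42.0, other scalings and filters, fits of 2 groups, a replicate block and single libraries left out were alternatives. Tables were read by data.table (version 1.17.8) and plots drawn with Python 3.11.15 and matplotlib 3.10.9, and the tests were checked on simulated data.

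No pair of libraries agreed within sampling noise (16.1 to 125 chi-square units for each degree of freedom). The subunits and gene lists were chosen with earlier results of these data known. All 10 subunits are named, other integrin subunits may be, each other list gives up to 4 genes of smallest p at each day plus direct ligands, and each subunit at most 3 alike genes. A listed gene is not reported here. Promoters are RefSeq sequences of GRCr8, the 250 bases before each start, matched by symbol for 7 of 10 subunits.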

Additional observations from a re-analysis of the deposited data

Results flagged for a closer look

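The response of 6 subunits differed between injury times by a test of the difference itself, edgeR's quasi-likelihood test on day against day. At day 14 relative to day 7 the log2 differences were -1.79 for Itga5, -1.79 for Itga8, -0.70 for Itgb1, 0.66 for Itga6 and 1.36 for Itgb6. At day 28 relative to day 7 they were -2.48 for Itga5, -1.94 for Itga8, -1.21 for Itgb1, -0.85 for Itga1, 0.53 for Itga6 and 0.69 for Itgb6. Itga1, which had risen at day 7, was at -0.31 at day 14 relative to day 7 (adjusted p = 0.342, edgeR) and was not called. Calls of Itga1, Itga6, Itga8 and Itgb6 at day 28 relative to day 7, and of Itga8 at day 14 relative to day 7, depended on single libraries, and the causes were not tested.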

How the results depend on the processing

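Under all 19 alternatives the calls of Itga5, Itga8, Itgb1 and Itgb6 at day 7, of Itga7, Itga8 and Itga11 at day 28, of Itga5, Itgb1 and Itgb6 at day 14 relative to day 7, and of Itga5 and Itgb1 at day 28 relative to day 7 kept their direction and their side of the threshold. Over 10 subunits, 6 comparisons and 19 alternatives, 1045 values kept both, 41 passed the threshold, 37 lost it and 17 changed sign, none of them called in the main analysis. Subunits called at day 14 numbered 1, but 3 by DESeq2, 2 without TMM, 2 with no filter and 2 from the 2 groups alone, and all genes called numbered 433, but 1360 by DESeq2 and 251 at a mean of at least 5 CPM. At day 14 relative to day 7 the 2 groups alone gave 3 subunits, against 5, and 2084 genes, against 3457. At day 28 relative to day 14 DESeq2 gave 3 subunits and 1647 genes, the 2 groups alone gave 42 genes, and the main analysis 0 and 768. At day 28 relative to day 7 the 2 groups alone gave 2183 genes, against 3310. Without TMM 2248 of 5383 genes called at day 7 were higher, against 2757 of 4622.

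Leaving out 1 library gave 4 to 7 subunits at day 7, 0 to 3 at day 14, 3 to 4 at day 28, 4 to 5 at day 14 relative to day 7, 0 to 1 at day 28 relative to day 14 and 2 to 8 at day 28 relative to day 7. For all genes these ranges were 3061 to 4948, 16 to 579, 1971 to 3580, 1959 to 3706, 261 to 1120 and 1954 to 3548. The labels do not say what the replicate numbers stand for. Same-numbered libraries of 2 groups correlated at -0.02 to 0.15, with 5 of 18 pairs over 0.1 and 9 of 12 libraries closest to their own number, a hint from the data and not from the design. With a replicate block no subunit lost its call and 3 were added: Itga7 at day 7 (-0.47, adjusted p = 0.0256, edgeR; 7 called, against 6), Itga7 at day 28 relative to day 14 (-0.55, 0.0465; 1, against 0) and Itgb4 at day 28 relative to day 7 (0.46, 0.0369; 7, against 6).

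Signs changed for 9 uncalled values, given here as ranges over the main analysis and all 19 alternatives. At day 14 Itga3 ranged between -0.046 and 0.29, Itga6 between -0.0052 and 0.34, and Itgb4 between -0.14 and 0.17, with Itgb4 at -0.012 for a mean of at least 5 CPM and -0.0085 with the replicate block. At day 28 Itga1 ranged between -0.30 and 0.092, Itga6 between -0.013 and 0.078, and Itgb1 between -0.12 and 0.19. At day 28 relative to day 14 Itga3 ranged between -0.0028 and 0.30, Itga6 between -0.29 and 0.045, and Itga8 between -0.54 and 0.28. The cause was not tested. Groups of 3 libraries limit the size of difference that can be called, and Itgad, at 24 control reads, is limited by depth.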

Other observations

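Day-28 replicate 3 stood apart from the other day-28 libraries for several subunits. Itga5 had 113.1 CPM there, against 253.8 and 288.9 CPM in the other day-28 libraries and 131.2 to 169.6 CPM in controls. Itga8 had 19.4 CPM there, against 57.8 and 69.0 CPM, and Fn1 had 695.5 CPM, against 1453 and 1997 CPM. Its smooth muscle marker sum was 14542 CPM, against 22923 and 31068 CPM, and its urothelium marker sum was 11276 CPM, against 8366 and 9282 CPM. Itgb8, in contrast, was highest in it at 262.6 CPM.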
